A study of Mus musculus with 6 samples.

Results

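Semaphorins, ephrins, Slits and netrins with their plexin, neuropilin, Eph, Robo, Dcc and Unc5 receptors make up the main families of axon guidance genes, and 60 of them were followed in nuclear RNA of mouse cerebellar granule cells. They were taken by gene symbol from the 24594 entries of a count table, as 30 ligand genes and 30 receptor genes. The mice were Ezh1(cKO/cKO);Neurod1-Cre (cKO, 3 libraries) or, as controls, Ezh1(wt/wt);Neurod1-Cre (WT, 3 libraries), all aged 7 months. Both genotypes thus carry the Cre driver, whose namesake Neurod1 is active in granule neurons. The product of Ezh1 is an enzyme of the Polycomb complex PRC2, which methylates lysine 27 of histone H3, a mark found at repressed developmental genes. The comparison asks how far neurons that no longer divide depend on upkeep of that mark for their gene expression. Nuclei were sorted on the neuronal antigen NeuN, which takes every NeuN-positive neuron of the cerebellum, of which granule cells are the great majority. The labels give neither the deleted exons of Ezh1 nor whether each library came from a separate animal, so p-values measure the spread between these libraries, which may be partly technical.

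Guidance molecules steer growing axons and migrating neurons by binding receptors on the growth cone, and in the adult brain the same proteins act at synapses. Semaphorins signal through plexins, the secreted class 3 semaphorins mostly with a neuropilin as partner. Ephrins sit in the membrane of one cell and bind Eph receptor tyrosine kinases on the next, Slits bind Robo receptors, and netrin-1 attracts through Dcc or repels through Unc5 receptors. In mice, Sema6a with Plxna2 controls the radial migration of granule cells, Plxnb2 is needed for granule cell layering, and loss of Unc5c gives the rostral cerebellar malformation.

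The libraries held 6340236 to 8284768 counts. Levels are given in CPM, the counts per 1000000 counts of a library after scaling by TMM factors, which correct for differences in composition. Ezh1 had 52.5, 50.9 and 55.6 CPM in the cKO libraries, against 71.0, 75.6 and 83.3 CPM in the WT libraries, and was called lower in cKO (log2 fold change -0.53, SE 0.10, adjusted p = 0.00672; exact two-sided permutation p = 0.1, the smallest that 3 against 3 libraries allow). All 14 granule cell markers fixed for this check were tested and their sum was 4967 to 5899.8 CPM in cKO and 5255 to 5393 CPM in WT. Markers of other cells were present too: oligodendrocyte lineage genes summed to 308 to 696 CPM in cKO and 256 to 450.0 CPM in WT, Purkinje cell genes to 494 to 743 CPM in cKO and 589.6 to 829 CPM in WT, unipolar brush cell genes to 581 to 619.6 CPM in cKO and 580.2 to 613 CPM in WT, inhibitory interneuron genes to 141 to 153 CPM in cKO and 139 to 169 CPM in WT, astrocyte genes to 139 to 150.2 CPM in cKO and 125 to 154 CPM in WT, microglial genes to 24.6 to 31.7 CPM in cKO and 18.1 to 39.6 CPM in WT and vessel, meningeal and choroid genes to 13.7 to 26.3 CPM in cKO and 19.9 to 25.6 CPM in WT. No gene on these lists was at 0 in all 6 libraries, and none was called. Replicate 1 of each genotype stood apart from the other libraries in Xist, which coats the silenced X chromosome (831 CPM in cKO and 812 CPM in WT, against 1.39 to 4.46 CPM in the rest). Over all 13115 tested genes 77 passed an adjusted p below 0.05, 43 higher (0.328%) and 34 lower (0.259%) in cKO, which together is 0.587%.

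No guidance gene differed between the genotypes at that threshold. Of the 60 genes 57 had enough counts to be tested, and edgeR called 0 of them, as did DESeq2 and limma-voom, although DESeq2 gave an adjusted p to only 27 of the 60. At an unadjusted p below 0.05 there were 8 of 57 (14%), 2 higher and 6 lower in cKO, against 11.9% of all tested genes (5.8% higher and 6.05% lower). The smallest adjusted p was 0.233. The cKO and WT libraries did not overlap for 6 of 57 genes (10.5%), 3 in each direction, against 16.3% of all tested genes (7.91% higher and 8.4% lower). Beyond 0.5 on the log2 scale lay 5 of 57, Slit1, Slit2, Unc5d, Ephb3 and Robo2, against 8.84% of all tested genes. The median log2 fold change of cKO over WT was 0.10 for the guidance genes and -0.01 for all tested genes, with 33 of 57 above 0 against 48.8% of all tested genes. Without cKO replicate 1 the guidance gene median was 0.03, and without replicate 1 of both genotypes 0.02. The data bounded most differences: for 48 of 57 genes (84.2%) the 95% interval lay within 2-fold in both directions, against 81% of all tested genes, and for 27 it lay within 0.5 on the log2 scale, against 45.1%. Sema3c, Sema3d and Efna3 fell below the filter. Sema3c had 7, 3 and 0 counts in the cKO libraries, against 7, 1 and 0 in the WT libraries. Sema3d had 6, 5 and 3 counts in the cKO libraries, against 5, 3 and 11 in the WT libraries. Efna3 had 3, 0 and 9 counts in the cKO libraries, against 8, 2 and 4 in the WT libraries. Exact two-sided permutation tests on CPM gave p = 1 for Sema3c and p = 0.9 for both Sema3d and Efna3.

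**Figure D1:**
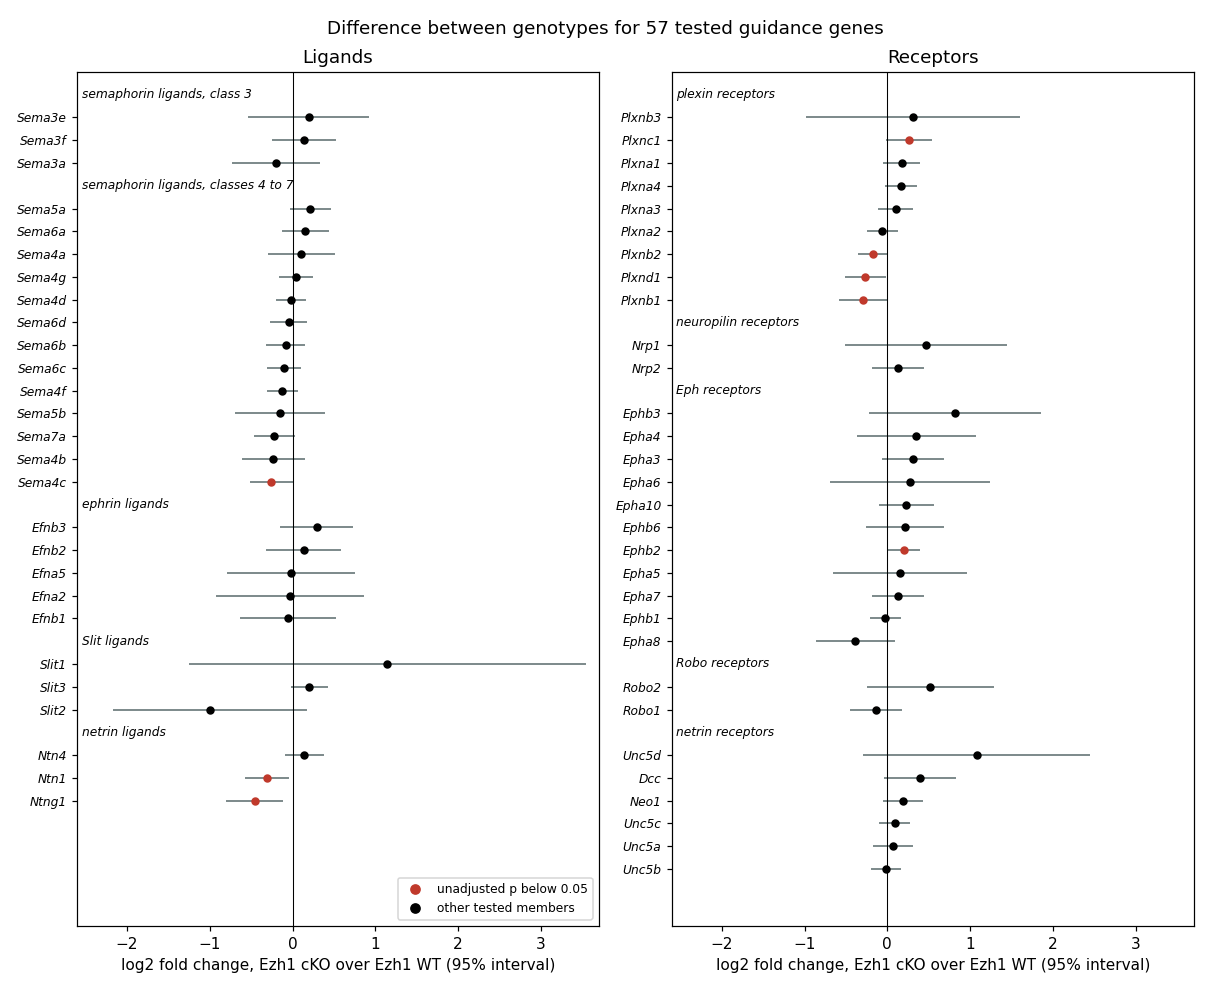
Log2 fold change of cKO over WT with its 95% interval for each of the 57 tested guidance genes, ligands in the left panel and receptors in the right, grouped by family. Points in red are the 8 genes with an unadjusted p below 0.05; none passed the adjusted threshold, and the widest intervals are those of Slit1, Unc5d and Plxnb3.

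To compare genes with each other, levels were divided by exon length in kilobases (CPM per exonic kilobase, mean ± SD, n = 3 libraries per genotype), since a longer gene collects more reads. The labels do not say which features the authors counted, so this scale assumes that reads were counted over exons. At least 1 CPM per exonic kilobase in both genotypes was reached by 43 of the 60 genes: all 9 plexins, all 3 netrins, 12 of 13 class 4 to 7 semaphorins, 7 of 11 Eph receptors, 4 of 6 ephrins and 4 of 6 netrin receptors, but 1 of 5 class 3 semaphorins, 1 of 2 neuropilins, 1 of 3 Slits and 1 of 2 Robo receptors. Unc5b, a repulsive netrin receptor, had the highest level in CPM per exonic kilobase (38.2 ± 4.65 in cKO and 38.8 ± 0.671 in WT) and stood above every other of the 60 genes in each of the 6 libraries. Next came Plxnb2, a receptor for class 4 semaphorins (25.1 ± 1.99 in cKO and 28.4 ± 1.03 in WT), and Sema7a, a semaphorin anchored in the membrane by a lipid (22.6 ± 4.22 in cKO and 26.3 ± 2.09 in WT). Their library ranges overlapped each other, and that of Sema7a also overlapped the range of the next, Sema4d, a class 4 semaphorin known as a ligand of Plxnb1 (20.6 ± 1.79 in cKO and 20.8 ± 0.613 in WT). Plxna1 followed (19.3 ± 3.38 in cKO and 17.1 ± 0.82 in WT). At the other end, Slit2 (0.0424 ± 0.0398 in cKO and 0.0862 ± 0.0172 in WT) and Nrp1, the neuropilin that binds Sema3a (0.228 ± 0.0966 in cKO and 0.164 ± 0.0441 in WT), were among the lowest, with Slit2 at 1 to 22 counts in a library.

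**Figure D2:**
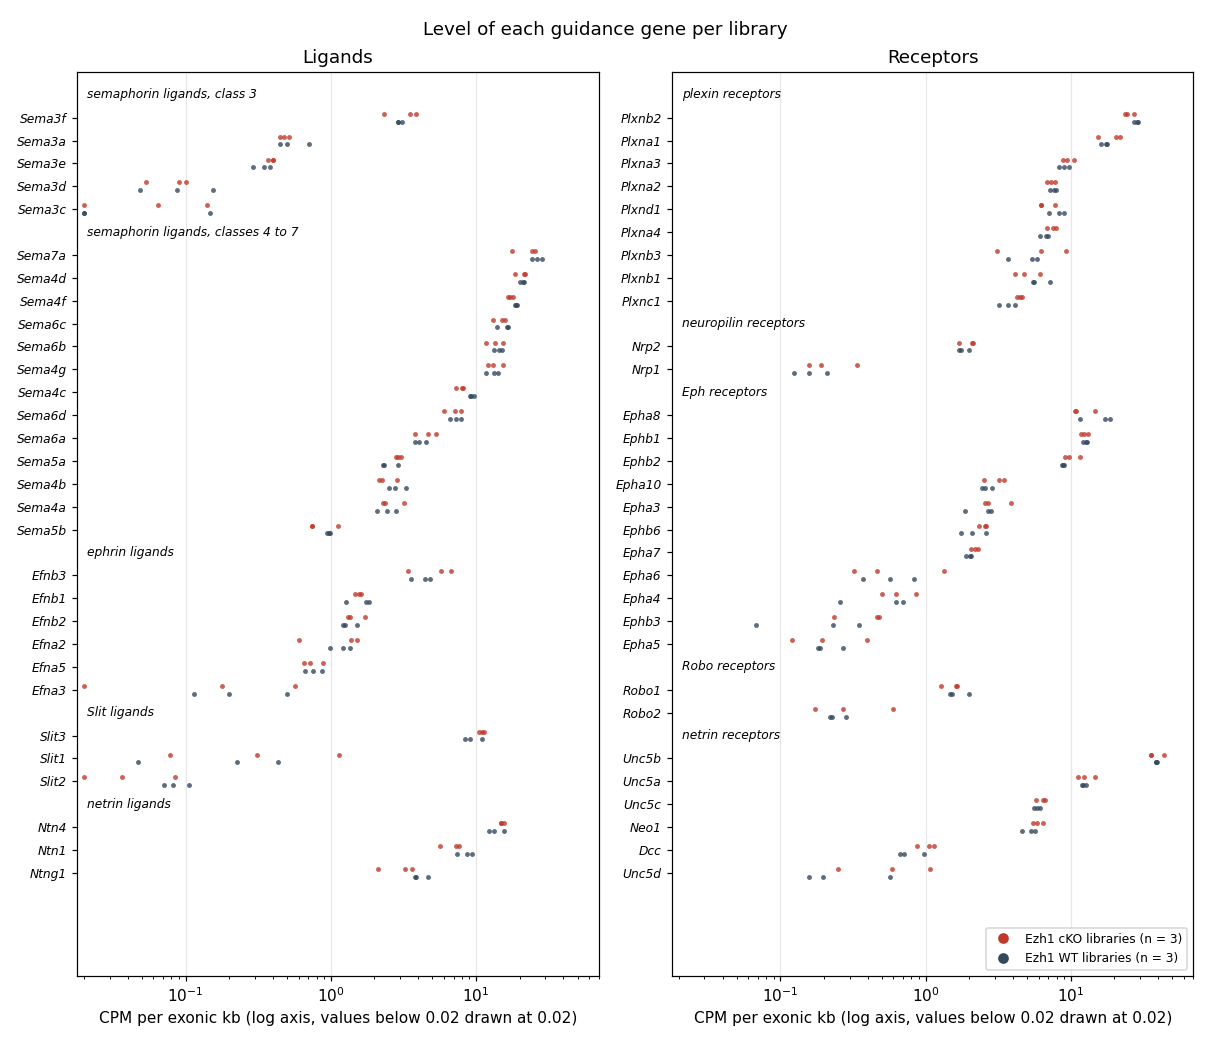
Level of each of the 60 guidance genes in CPM per exonic kilobase on a log axis, 1 point per library, with cKO above WT in each row and genes sorted by level within a family. The points of the 2 genotypes overlap for nearly all genes, and Unc5b lies furthest to the right.

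Among the secreted class 3 semaphorins only Sema3f, the ligand of Nrp2, was well detected. Its level was 20.1, 18.4 and 12.2 CPM in the cKO libraries, against 16.0, 15.0 and 15.2 CPM in the WT libraries (log2 fold change 0.14, SE 0.18, adjusted p = 0.832). The cKO values straddled the WT values. Sema3a had 50, 43 and 40 counts in the cKO libraries, against 46, 71 and 51 in the WT libraries. Sema3e, the class 3 ligand that binds Plxnd1 without a neuropilin, had 24, 24 and 24 counts in the cKO libraries, against 18, 23 and 29 in the WT libraries. Of the 3 tested members 2 had a positive and 1 a negative log2 fold change, between -0.20 and 0.19.

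The membrane-bound semaphorins of classes 4 to 7 were the best represented ligands, and 9 of 13 had a negative log2 fold change (median -0.09, from -0.25 to 0.22). All 13 intervals lay within 2-fold. Sema4c, a class 4 semaphorin known as a ligand of Plxnb2, lies on chromosome 1, 36548639 to 36560699 (GRCm38). It had 33.4, 37.7 and 36.6 CPM in the cKO libraries, against 42.3, 44.3 and 41.9 CPM in the WT libraries (log2 fold change -0.25, SE 0.12, adjusted p = 0.393). Each cKO library was below each WT library, and the same held for Sema4f, at 88.4, 95.6 and 90.4 CPM in the cKO libraries, against 99.0, 102 and 97.7 CPM in the WT libraries (log2 fold change -0.12, SE 0.08, adjusted p = 0.622). Neither passed the threshold. Sema7a had 80.6, 58.7 and 84.5 CPM in the cKO libraries, against 80.3, 94.0 and 86.4 CPM in the WT libraries (log2 fold change -0.22, SE 0.11, adjusted p = 0.464). Only cKO replicate 2 lay below the WT range, and without that library the log2 fold change of Sema7a was -0.07. Of the others, Sema4d, Sema6d and Sema4g differed least, with log2 fold changes of -0.02, -0.04 and 0.05 and intervals of -0.19 to 0.15, -0.26 to 0.17 and -0.15 to 0.24.

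The plexins held 4 of the 8 genes with an unadjusted p below 0.05, 1 higher and 3 lower in cKO. That is 4 of 9 plexins (44.4%), against 11.9% of all tested genes. This count depended on the fit. With limma-voom all 4 stayed below 0.05 (unadjusted p 0.0345 to 0.0393). With DESeq2 only Plxnb2 did (0.0437, against 0.0562 for Plxnd1, 0.0701 for Plxnb1 and 0.0800 for Plxnc1). By edgeR without cKO replicate 1 none of the 4 did (0.108 to 0.253). Plxnd1, a plexin known best from blood vessels and as the Sema3e receptor, had 45.8, 45.7 and 56.7 CPM in the cKO libraries, against 51.5, 65.6 and 60.8 CPM in the WT libraries (log2 fold change -0.27, SE 0.11, adjusted p = 0.343). Plxnb1, the Sema4d receptor, had 39.4, 45.7 and 59.1 CPM in the cKO libraries, against 54.0, 53.1 and 68.7 CPM in the WT libraries (log2 fold change -0.29, SE 0.14, adjusted p = 0.415). In both genes 1 cKO library lay among the WT values, and without cKO replicate 1 the log2 fold change of Plxnb1 was -0.16. Plxnb2 had 189.7, 211 and 181 CPM in the cKO libraries, against 221, 225 and 210.0 CPM in the WT libraries (log2 fold change -0.17, SE 0.08, adjusted p = 0.393), and its highest cKO library was just above its lowest WT library. Plxnc1, the receptor of Sema7a, was the exception in direction, with 38.3, 37.0 and 35.6 CPM in the cKO libraries, against 31.0, 34.7 and 26.7 CPM in the WT libraries (log2 fold change 0.27, SE 0.13, adjusted p = 0.416) and no overlap between the genotypes. Its log2 fold change was 0.17 when WT replicate 3 was left out. The class A plexins had log2 fold changes of 0.17 (Plxna1), -0.06 (Plxna2), 0.10 (Plxna3) and 0.17 (Plxna4). The granule cell migration pair of mice, Plxna2 and its ligand Sema6a, thus averaged 125 ± 7.62 CPM in cKO and 130.4 ± 5.92 CPM in WT for the receptor and 40.3 ± 6.82 CPM in cKO and 36.2 ± 3.33 CPM in WT for the ligand (SD, n = 3 each). Nrp2 had 25.0, 24.9 and 20.2 CPM in the cKO libraries, against 23.4, 20.1 and 20.9 CPM in the WT libraries (log2 fold change 0.12, SE 0.15, adjusted p = 0.8), and Nrp1 had 23, 12 and 10 counts in the cKO libraries, against 8, 11 and 17 in the WT libraries.

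**Figure D3:**
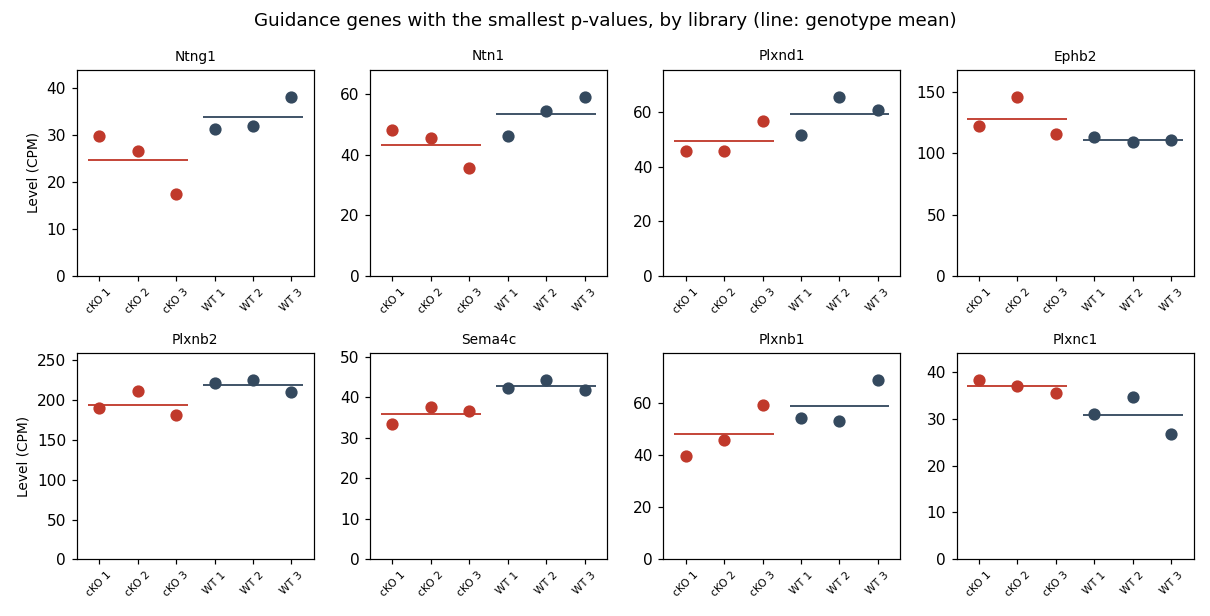
Level in CPM of the 8 guidance genes with an unadjusted p below 0.05, 1 point per library (cKO in red at the left, WT in grey at the right) with a line at the genotype mean and axes from 0. The genotypes do not overlap for Ntng1, Ephb2, Sema4c and Plxnc1 and overlap for the other 4.

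Receptors of the Eph family were far more abundant than the ephrins. Summed over genes, Eph receptors reached 47.5, 50.3 and 44.5 CPM per exonic kilobase in the cKO libraries, against 44.3, 50.6 and 49.0 CPM per exonic kilobase in the WT libraries. The 6 ephrin genes summed to 10.5, 8.58 and 12.2 CPM per exonic kilobase in the cKO libraries, against 9.40, 10.1 and 8.90 CPM per exonic kilobase in the WT libraries. Neither sum separated the genotypes. Ephb2, an ephrin-B receptor of dendrites and synapses on chromosome 4, 136647536 to 136836326, was the Eph receptor of smallest p. Its level was 122, 146 and 115 CPM in the cKO libraries, against 113, 109 and 111 CPM in the WT libraries (log2 fold change 0.20, SE 0.09, adjusted p = 0.356). Each cKO library was above each WT library, and without cKO replicate 2, the highest, the log2 fold change of Ephb2 was 0.10. Epha7 did not overlap either, at 22.7, 20.4 and 21.6 CPM in the cKO libraries, against 20.1, 18.8 and 20.3 CPM in the WT libraries (log2 fold change 0.13, SE 0.15, adjusted p = 0.79). Ephb1 differed little (log2 fold change -0.02, 95% interval -0.20 to 0.15). Of the 11 Eph receptors 9 had a positive log2 fold change (median 0.21).

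Epha8, an ephrin-A receptor on chromosome 4, 136929419 to 136956859 and, by its mean over all 6 libraries, the highest per exon length of the 11 Eph receptors among the 60 genes, had a negative log2 fold change. Its level was 51.5, 69.2 and 50.0 CPM in the cKO libraries, against 54.3, 87.5 and 80.9 CPM in the WT libraries (log2 fold change -0.39, SE 0.20, adjusted p = 0.518). WT replicate 1 lay among the cKO values, and the other WT libraries were the highest of the 6. With WT replicate 1 left out Epha8 was called lower (log2 fold change -0.57, adjusted p = 0.0108), and it was called without the filter on low counts as well (-0.39, adjusted p = 0.0259). It was the only guidance gene called under any of the 15 alternative settings, and over all of them its adjusted p reached 0.834. Ephb3 was among the scarcest Eph receptors, with 22, 10 and 20 counts in the cKO libraries, against 3, 11 and 19 in the WT libraries (log2 fold change 0.82, SE 0.50, adjusted p = 0.556). Its log2 fold change was 0.43 when WT replicate 1 was left out. Efnb3 had the highest level of the 6 ephrins per exon length, and in CPM was at 18.1, 10.8 and 21.2 CPM in the cKO libraries, against 14.2, 15.5 and 11.4 CPM in the WT libraries (log2 fold change 0.29, SE 0.21, adjusted p = 0.64). The other 4 tested ephrins had log2 fold changes of -0.06 to 0.13.

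Slit3 was the only Slit detected well. Its level was 63.6, 69.2 and 66.7 CPM in the cKO libraries, against 51.1, 55.3 and 66.4 CPM in the WT libraries (log2 fold change 0.20, SE 0.11, adjusted p = 0.462), with WT replicate 3 in the cKO range. Its interval was -0.01 to 0.42. Slit1 had 47, 3 and 12 counts in the cKO libraries, against 17, 2 and 11 in the WT libraries (log2 fold change 1.14, SE 1.00, adjusted p = 0.729). Slit2 had 15, 1 and 6 counts in the cKO libraries, against 12, 15 and 22 in the WT libraries (log2 fold change -1.0, SE 0.56, adjusted p = 0.513). Leaving out 1 library moved the log2 fold change of Slit2 to between -1.99 (cKO replicate 1 left out, adjusted p = 0.416) and -0.50 (cKO replicate 2 left out). The interval of Slit1, -1.24 to 3.53, takes in 2-fold differences in both directions, and that of Slit2, -2.16 to 0.16, takes in a 2-fold lower but not a 2-fold higher level in cKO. Of the receptors, Robo1 had 27.1, 21.1 and 26.6 CPM in the cKO libraries, against 32.8, 24.5 and 25.2 CPM in the WT libraries (log2 fold change -0.14, SE 0.15, adjusted p = 0.774). Robo2 had 10.2, 2.93 and 4.62 CPM in the cKO libraries, against 4.84, 3.76 and 3.88 CPM in the WT libraries (log2 fold change 0.52, SE 0.36, adjusted p = 0.634). The directions of Robo2 and Slit1 rested on cKO replicate 1: without it the log2 fold changes were -0.13 for Robo2 and -0.25 for Slit1.

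The netrin ligands gave the smallest p-values of all 60 genes. Ntng1 encodes netrin-G1, which is anchored in the axonal membrane and binds Lrrc4c rather than Dcc, and lies on chromosome 3, 109780050 to 110149972. It had 29.9, 26.6 and 17.4 CPM in the cKO libraries, against 31.3, 31.9 and 38.2 CPM in the WT libraries (log2 fold change -0.46, SE 0.16, adjusted p = 0.233). Each cKO library was below each WT library, with cKO replicate 3 furthest down, and without that library the log2 fold change of Ntng1 was -0.26. Ntn1, the classical netrin on chromosome 11, 68209364 to 68386826, had 48.1, 45.4 and 35.6 CPM in the cKO libraries, against 46.1, 54.5 and 59.1 CPM in the WT libraries (log2 fold change -0.31, SE 0.12, adjusted p = 0.297). Here WT replicate 1 lay within the cKO range, and without cKO replicate 3 the log2 fold change of Ntn1 was -0.19. Ntn4, which binds laminins of the basement membrane, differed in the opposite direction by less than the spread of its WT libraries: 56.6 ± 1.79 CPM in cKO and 51.4 ± 6.08 CPM in WT (SD, n = 3 each; log2 fold change 0.14, SE 0.11, adjusted p = 0.66). The entries Gm15915 and Gm8580 overlap Ntn4 and held 402 counts in all, against 2251 for Ntn4. Whether counting used strand is not stated, so reads of overlapping entries cannot be told apart.

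The netrin receptors were dominated by the Unc5 family. Unc5b, on chromosome 10, 60762594 to 60831581, had 223, 273 and 222 CPM in the cKO libraries, against 239.9, 240.3 and 247 CPM in the WT libraries (log2 fold change -0.02, SE 0.08, adjusted p = 0.956). Its interval of -0.19 to 0.15 was among the narrowest. Unc5c and Unc5a had log2 fold changes of 0.09 (-0.09 to 0.27) and 0.06 (-0.16 to 0.29). Per exon length the 4 Unc5 genes summed to 58.0 ± 6.41 CPM per exonic kilobase in cKO and 57.2 ± 0.484 in WT (SD, n = 3 each). The attractive receptor genes Dcc and Neo1 together summed to 6.91, 6.66 and 7.31 CPM per exonic kilobase in the cKO libraries, against 6.28, 6.34 and 5.36 CPM per exonic kilobase in the WT libraries. This sum was higher in each cKO library than in each WT library, with a ratio of cKO to WT of 1.16, but neither gene was called. Neither gene alone separated the genotypes, and the sum of all 6 netrin receptors overlapped between them (ratio 1.03). Dcc alone had 13.8, 15.1 and 11.5 CPM in the cKO libraries, against 12.8, 8.78 and 9.35 CPM in the WT libraries (log2 fold change 0.39, SE 0.20, adjusted p = 0.466), and Neo1 had 51.7 ± 4.05 CPM in cKO and 45.4 ± 4.52 CPM in WT (SD, n = 3 each; log2 fold change 0.19, SE 0.11, adjusted p = 0.549). Unc5d had 69, 15 and 35 counts in the cKO libraries, against 35, 13 and 12 in the WT libraries (log2 fold change 1.08, SE 0.60, adjusted p = 0.546), with an interval of -0.28 to 2.44.

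Of 30 receptor genes 22 had a positive log2 fold change (median 0.17) and of 27 tested ligand genes 11 did (median -0.03), where 48.8% of all tested genes did (median -0.01). With an unadjusted p below 0.05 there were 2 higher and 3 lower receptors (16.7% of 30), and 0 higher and 3 lower ligands (11.1% of 27) by edgeR. The share over all tested genes was 11.9% (5.8% higher and 6.05% lower). The receptor median was 0.08 without cKO replicate 1 and 0.08 also without replicate 1 of both genotypes, where 20 and 19 of 30 receptors were positive. The ligand median was 0.02 without WT replicate 2, with 14 of 27 positive. By system, the medians of receptors and ligands were 0.13 and -0.07 for semaphorins (11 and 16 tested genes) and 0.21 and -0.02 for ephrins (11 and 5). They were 0.19 and 0.20 for Slits (2 and 3) and 0.14 and -0.31 for netrins (6 and 3). The netrin ligand median is the value of Ntn1. Levels showed less: the summed receptor levels per exon length had cKO to WT ratios of 0.998 (semaphorin), 0.989 (ephrin), 0.973 (Slit) and 1.03 (netrin). The ligand sums had ratios of 0.944, 1.10, 1.17 and 0.949 in the same order, and of these 8 sums that of the Slits alone separated the genotypes, at 11.7, 11.5 and 11.3 CPM per exonic kilobase in the cKO libraries, against 8.93, 9.24 and 11.3 CPM per exonic kilobase in the WT libraries, where cKO replicate 3 was only just above WT replicate 3. Slit1 gave 1.14 CPM per exonic kilobase of the Slit sum in cKO replicate 1, its highest library, and Slit3 alone did not separate the genotypes. Members of a sum share libraries and are not replicates, and no test was made on the sums.

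Long genes are common among guidance genes, and gene length moved with direction. The 57 tested genes had a median span of 123 kb, against 24.6 kb for all tested genes. Of the 32 guidance genes of at least 100 kb 21 (65.6%) had a positive log2 fold change (median 0.16), and of the 25 shorter ones 12 (48%) did (median -0.02). Over all tested genes the shares were 60.1% of 2021 genes of at least 100 kb (median 0.05) and 46.7% of 11086 shorter ones (median -0.02). The part of gene length in the difference between receptors and ligands was not tested.

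Genes that act with the guidance families were followed as a list of 79: 20 further family members, 48 intracellular effectors and 11 co-receptors and proteases. Of the 71 tested genes edgeR called 0, as did DESeq2 and limma-voom. There were 9 with an unadjusted p below 0.05 (12.7%, against 11.9% of all tested genes; 7 higher and 2 lower in cKO), and the median log2 fold change was 0.06. The smallest p-values belonged to effectors. Dpysl2, which encodes the collapsin response mediator CRMP2 of semaphorin signalling, had 122, 104 and 119 CPM in the cKO libraries, against 100.2, 90.4 and 92.7 CPM in the WT libraries (log2 fold change 0.29, SE 0.09, adjusted p = 0.144). Its relative Dpysl4 had 233, 249 and 182 CPM in the cKO libraries, against 200.1, 168 and 174 CPM in the WT libraries (log2 fold change 0.29, SE 0.10, adjusted p = 0.233). Nck2, an adaptor between receptor tyrosine kinases and the actin cytoskeleton, had 41.4, 41.1 and 36.6 CPM in the cKO libraries, against 31.3, 30.4 and 29.5 CPM in the WT libraries (log2 fold change 0.39, SE 0.12, adjusted p = 0.157). Each cKO library was above each WT library for Dpysl2 and Nck2, while for Dpysl4 cKO replicate 3 lay within the WT range. Some alternatives called 1 or 2 genes of the list: Dpysl4 without the filter on low counts (adjusted p = 0.0429) and without cKO replicate 3 (0.0405), and Dpysl2 (0.0492) and the netrin receptor gene Dscam (0.00819) without cKO replicate 2. These 3 genes were higher in cKO there.

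Several members, noticed after their values were seen, varied between libraries together with markers of other cells. How many of the 60 genes share such a library order was not counted. Plxnb3, an X-linked plexin known from oligodendrocytes and a receptor of Sema5a, had 40.3, 20.2 and 60.3 CPM in the cKO libraries, against 38.2, 35.2 and 24.2 CPM in the WT libraries (log2 fold change 0.31, SE 0.47, adjusted p = 0.862). Sema6a had 40.9, 33.2 and 46.8 CPM in the cKO libraries, against 39.8, 35.8 and 33.1 CPM in the WT libraries (log2 fold change 0.16, SE 0.13, adjusted p = 0.704). The 10 oligodendrocyte lineage markers, all of them tested and none at 0, summed to 408, 308 and 696 CPM in the cKO libraries, against 450.0, 383 and 256 CPM in the WT libraries. For this sum as for Plxnb3, Sema6a and Efnb3, cKO replicate 3 was the highest library, and cKO replicate 2 and WT replicate 3 were the lowest. Without cKO replicate 3 the log2 fold changes were -0.09 for Plxnb3, 0.04 for Sema6a and 0.09 for Efnb3. In such bulk libraries fewer cells of a type and less RNA per cell cannot be told apart, and the part of oligodendrocyte RNA in these levels was not tested.

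**Figure D4:**
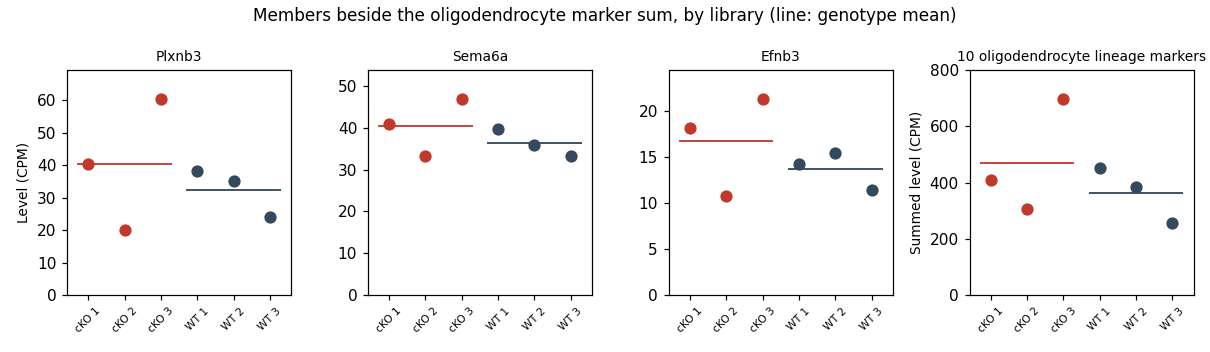
Level in CPM of Plxnb3, Sema6a and Efnb3 and the summed level of 10 oligodendrocyte lineage markers, 1 point per library (cKO in red at the left, WT in grey at the right) with a line at the genotype mean. In all 4 panels cKO replicate 3 is the highest library, and cKO replicate 2 and WT replicate 3 are the lowest.

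A second group of low-level members, noticed after their values were seen, was highest in cKO replicate 1. It held Slit1 at 6.76, 0.463 and 1.85 CPM in the cKO libraries, against 2.57, 0.279 and 1.33 CPM in the WT libraries. Robo2 (above) and Unc5d, at 9.93, 2.32 and 5.39 CPM in the cKO libraries, against 5.29, 1.81 and 1.46 CPM in the WT libraries, shared the pattern. Epha5 had 6.62, 2.01 and 3.23 CPM in the cKO libraries, against 4.53, 3.06 and 3.16 CPM in the WT libraries (log2 fold change 0.16, SE 0.39, adjusted p = 0.919). Epha6 had 7.05, 1.70 and 2.46 CPM in the cKO libraries, against 4.38, 1.95 and 3.03 CPM in the WT libraries (log2 fold change 0.28, SE 0.46, adjusted p = 0.866). For Slit1, Robo2, Epha5 and Epha6 WT replicate 1 was the highest of its genotype and second over all libraries, and for Unc5d only cKO replicates 1 and 3 were higher. The 10 Purkinje cell markers, 9 of them tested and none at 0, summed to 743, 494 and 637 CPM in the cKO libraries, against 829, 589.6 and 602 CPM in the WT libraries. Replicate 1 was the highest of its genotype there too, but this sum was highest in WT replicate 1 and the members above in cKO replicate 1. Itpr1 alone held 482 CPM of the sum in cKO replicate 1 and 558 CPM in WT replicate 1. Camk2a, a kinase gene of Purkinje and forebrain neurons chosen after its values were seen, had 27.5, 4.94 and 10.9 CPM in the cKO libraries, against 12.4, 7.10 and 7.28 CPM in the WT libraries. Slc17a6, looked up with Camk2a, had 12, 0 and 1 counts in the cKO libraries, against 1, 0 and 2 in the WT libraries. Replicate 1 of each genotype was also the library high in Xist (831 CPM in cKO and 812 CPM in WT). The part of other neurons in these levels was not tested, nor was that of the difference marked by Xist. Without cKO replicate 1 the log2 fold changes were 0.46 for Unc5d (adjusted p = 0.868), -0.44 for Epha5 and -0.57 for Epha6. Leaving out replicate 1 of both genotypes gave 1.24 for Unc5d (adjusted p = 0.403), -0.02 for Robo2, -0.25 for Epha5 and -0.27 for Epha6.

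**Figure D5:**
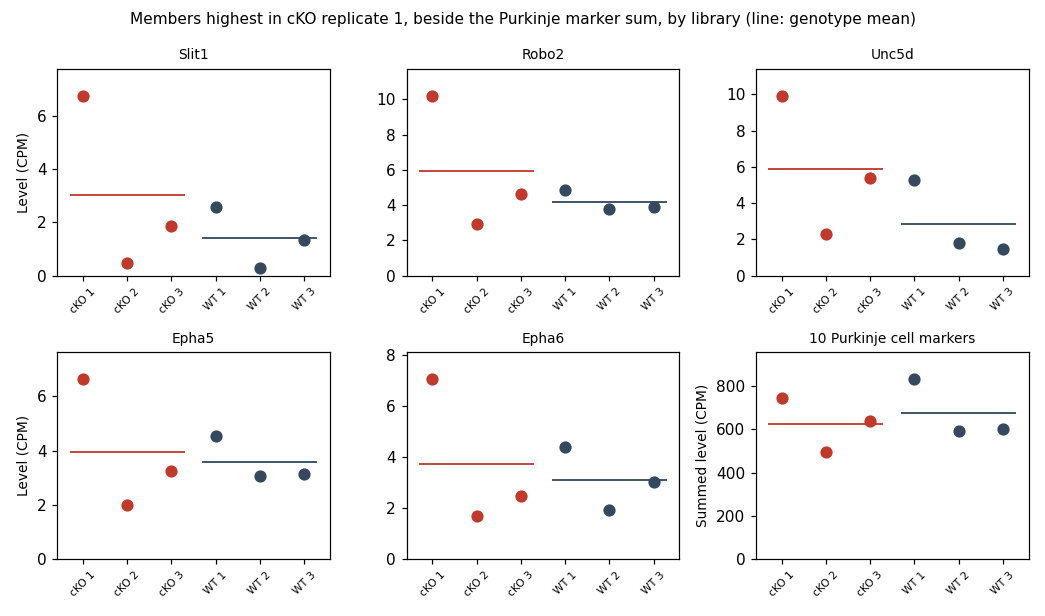
Level in CPM of Slit1, Robo2, Unc5d, Epha5 and Epha6 and the summed level of 10 Purkinje cell markers, 1 point per library (cKO in red at the left, WT in grey at the right) with a line at the genotype mean. Replicate 1 is the highest library of its genotype in all 6 panels.

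Promoter sequences were read because Polycomb complexes gather at promoters rich in CpG, a C followed by a G. RefSeq windows of 300 bases (250 before to 50 after a start within or at the end of a gene, GRCm38.p6) matched 51 of the 60 guidance genes, with 66 windows in all. The motif CG, which reads the same on both strands, occurred in 100% of these windows and in 99.3% of the windows of all tested genes. Taking the richest window of each gene, the guidance genes had a median of 25 CG, against 22 for 10377 tested genes, and 34 of 51 (66.7%) had 20 or more, against 59.2%. Tested guidance genes with 20 or more had a median log2 fold change of 0.01 (n = 32) and the rest one of 0.10 (n = 16); the medians of all tested genes were -0.01 in both classes. The 6-letter motif CAGATG, a site form bound by NeuroD factors, was searched on both strands and does not overlap CG. It was found in 4 of 66 windows (6.06%) against 11.6% of the windows of tested genes.

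Shown here, with each CG in capitals, are the windows of Ntng1, Plxnd1 and Ephb2, which have the smallest p of the genes with a window, of the most abundant member (Unc5b), of the member with the most CG and with a call under some settings (Epha8), and of the CG-poor Plxnb3. They lie at chr3:110143423-110143722, minus strand (28 CG), chr6:115994956-115995255, minus strand (23 CG), chr4:136835963-136836262, minus strand (24 CG), chr10:60831532-60831831, minus strand (36 CG), chr4:136956767-136957066, minus strand (56 CG) and chrX:73756853-73757152, plus strand (4 CG), and each is written 5′ to 3′. The windows of Ntng1, Plxnd1, Ephb2 and Plxnb3 lie wholly inside the spans of their genes, so they do not mark the outermost start. That of Ntng1 ends at 110143722, while the gene's span ends at 110149972.
Ntng1: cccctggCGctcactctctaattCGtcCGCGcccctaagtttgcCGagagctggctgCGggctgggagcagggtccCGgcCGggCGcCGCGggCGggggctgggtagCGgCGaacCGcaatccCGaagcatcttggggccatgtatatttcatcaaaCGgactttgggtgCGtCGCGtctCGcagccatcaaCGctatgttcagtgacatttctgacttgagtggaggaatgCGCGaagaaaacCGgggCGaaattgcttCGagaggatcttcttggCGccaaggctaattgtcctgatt
Plxnd1: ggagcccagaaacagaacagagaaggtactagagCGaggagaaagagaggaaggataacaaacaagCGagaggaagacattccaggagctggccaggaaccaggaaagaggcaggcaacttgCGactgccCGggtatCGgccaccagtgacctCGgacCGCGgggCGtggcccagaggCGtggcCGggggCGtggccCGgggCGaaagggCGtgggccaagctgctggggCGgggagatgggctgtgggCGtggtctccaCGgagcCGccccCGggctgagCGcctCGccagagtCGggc
Ephb2: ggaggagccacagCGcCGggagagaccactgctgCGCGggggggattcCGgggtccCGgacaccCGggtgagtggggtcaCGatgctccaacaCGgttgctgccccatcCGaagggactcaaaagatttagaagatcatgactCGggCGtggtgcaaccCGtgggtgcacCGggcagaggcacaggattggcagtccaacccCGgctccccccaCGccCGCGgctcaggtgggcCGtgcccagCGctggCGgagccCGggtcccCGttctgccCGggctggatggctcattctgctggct
Unc5b: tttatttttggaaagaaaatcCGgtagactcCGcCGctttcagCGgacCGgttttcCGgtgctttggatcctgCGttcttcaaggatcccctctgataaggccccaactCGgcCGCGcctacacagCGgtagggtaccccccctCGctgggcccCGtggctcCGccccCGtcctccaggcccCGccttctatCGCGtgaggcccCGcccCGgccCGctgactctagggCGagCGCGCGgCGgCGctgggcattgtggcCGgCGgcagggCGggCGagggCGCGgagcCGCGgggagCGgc
Epha8: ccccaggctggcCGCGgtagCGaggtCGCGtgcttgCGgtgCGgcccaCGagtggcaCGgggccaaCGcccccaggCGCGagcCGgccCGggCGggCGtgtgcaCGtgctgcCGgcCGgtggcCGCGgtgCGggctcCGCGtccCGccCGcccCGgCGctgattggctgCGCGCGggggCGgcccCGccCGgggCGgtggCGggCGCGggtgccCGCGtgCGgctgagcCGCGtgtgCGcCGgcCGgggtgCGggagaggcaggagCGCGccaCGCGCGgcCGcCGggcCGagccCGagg
Plxnb3: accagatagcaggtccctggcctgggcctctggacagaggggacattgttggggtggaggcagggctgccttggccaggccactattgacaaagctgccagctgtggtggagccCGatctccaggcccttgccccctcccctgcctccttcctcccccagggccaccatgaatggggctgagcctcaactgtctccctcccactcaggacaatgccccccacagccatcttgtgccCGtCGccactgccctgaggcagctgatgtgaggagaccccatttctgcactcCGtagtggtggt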

How the data were processed

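Nuclear RNA-seq of sorted NeuN-positive nuclei was measured in 3 cKO and 3 WT libraries. The authors deposited whole-number counts per gene, not normalized, keyed by NCBI gene ID. Per the submitters' processing notes, Subread and mm10 were used. Version, annotation, counted features, strand and the treatment of multi-mapping reads are not stated in the sources used here. Of the 24594 entries 24570 matched a RefSeq GRCm38.p6 symbol. Exon lengths are unions of GENCODE M21 exons (GRCm38). The spans of 16 of the 60 guidance genes share bases with another entry, whose reads cannot be told apart.

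All entries were fitted together in edgeR 4.0.16 (R 4.3.3) with filterByExpr, TMM scaling and robust quasi-likelihood tests for genotype, with no other term. P-values are two-sided and Benjamini-Hochberg adjusted over the 13115 tested genes, and a call needed an adjusted p below 0.05. SE and 95% intervals come from that fit. DESeq2 1.42.0 and limma-voom 3.58.1 were alternatives, as were other scalings and filters, a replicate block and leaving out libraries. The fit was checked on simulated data. Depth limits precision for genes below a few CPM.

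The members and lists were chosen with earlier results of these data known. Values in every library are given for members with an unadjusted p below 0.05, beyond 0.5 on the log2 scale or highest per exon length in their family, and for pathway genes with an unadjusted p below 0.01. Other genes are named as examples or to complete a family, and were chosen after their values were seen. No 2 libraries of a genotype were alike enough to be 1 library deposited again (chi-square over genes, divided by its degrees of freedom, 4.03 to 5, where 1 is counting noise).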

Additional observations from a re-analysis of the deposited data

How the results depend on the processing

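No guidance gene was called higher under any of the 15 alternatives, and 0 were called lower in all but 2 of them: Epha8 alone was called without the filter on low counts (1 gene) and in 1 fit without a library (0 to 1 over these fits). The calls over all genes, 43 higher and 34 lower, moved more: 69 higher with library size alone, 23 higher and 19 lower with limma-voom, 146 and 131 without a filter, and 56 lower with DESeq2. Leaving out libraries, replicate 1 of both genotypes included, gave 10 to 116 higher and 3 to 133 lower. Among the other pathway genes 1 was called without a filter and 0 to 2 without a library. Of the 22 members named by rule, 17 kept their sign in every fit. The signs that turned were those of values near 0 or of scarce genes: Robo2 (-0.13 to 0.84 over the fits without a library), Slit1 (-0.25 to 1.86), Robo1 (-0.21 to 0.0043), Sema3f (-0.0119 to 0.33) and Unc5b (-0.12 to 0.0348, and 0.0142 with library size alone). For these the cause was not tested. Deviations of same-numbered libraries correlated at 0.151, 0.005 and -0.038 over 13115 genes, and only those of replicate 1 correlated best with their own number. The labels do not say whether libraries were matched by number, and these correlations cannot settle it. With replicate number as a block 49 genes were higher and 41 lower, and 0 guidance genes were called (smallest adjusted p 0.173; unadjusted p below 0.05 for 10). Intervals wider than 2-fold belonged to 9 of the 57 genes, mostly below 10 CPM.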
